A study of Mus musculus with 11 samples.

Results

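The comparison described here is that of livers from mice given the lower of 2 doses of Curaxin-137 with livers from mice given water, 4 arrays of the 11 in the series, chosen by their titles. The treated livers are replicates 43 and 55, whose mice drank 0.1 mg/ml Curaxin-137 for 10 weeks, and the control livers are replicates 1 and 25, whose mice drank plain water for the same 10 weeks. All mice carried the Her2/neu transgene and were followed from 4 to 14 weeks of age. The sources used here do not name the promoter of the transgene, the strain or the sex of the mice. Livers at 0.2 mg/ml (replicates 73 and 85) are set beside the lower dose, and they also enter the normalization, the detection filter and the shared estimate of the spread. Of the 5 spleens, 2 at 0.1 mg/ml and 1 control are compared with the livers, in a fit that takes in all 11 arrays. Each sample is 1 array, and where nothing says that samples came from separate mice, the p-values measure only the spread between these arrays.

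Curaxins are small molecules that bind DNA without breaking it and trap FACT, a histone chaperone of Ssrp1 and Supt16, on chromatin. In cultured cells this is known to activate p53 and to inhibit NF-kB, and curaxins have also been described as inhibitors of the heat shock response. The liver takes up what is absorbed from drinking water, stores glucose as glycogen, makes and burns lipids, clears foreign compounds through cytochrome P450 enzymes and secretes most plasma proteins, including the acute phase proteins of inflammation. The gene lists used below cover these functions.

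Values are log2 normalized intensities, and differences are those of the 0.1 mg/ml livers minus the control livers, given with the standard error (SE) of the fit. Mean raw signals were 114 and 130 on the 0.1 mg/ml arrays and 140 and 146 on the control arrays, and 36.0% to 38.1% of the 45281 probes were detected on these 4 arrays. The arrays had the markers of liver: of 12 hepatocyte markers 10 were tested, and Apoa1 read 13.57 and 13.21 in the 0.1 mg/ml livers, against 13.34 and 13.17 in control livers. The probe for Alb was dim, at 5.25 and 5.18 in the 0.1 mg/ml livers and 5.10 and 5.21 in control livers. Precision is limited by having 2 arrays a group. The array has no named probe for Ssrp1 or Trp53, so neither is measured here.

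Among the 4 arrays compared, the 2 control livers were the pair with the most features apart by more than 1 log2 unit. Of the 12800 features tested, 459 (3.59%) differed by more than 1 log2 unit between the controls, and 60 (0.469%) did so between the 0.1 mg/ml livers. Control replicate 1 was closer to the 0.1 mg/ml livers, with 127 and 117 features apart by more than 1 log2 unit, than to control replicate 25. Control replicate 25 differed in this way from the 0.1 mg/ml livers at 286 and 293 features, and the array correlation was 0.971 between the controls and 0.989 between the 0.1 mg/ml livers. The plot of array pairs shows the same order.

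**Figure D1:**
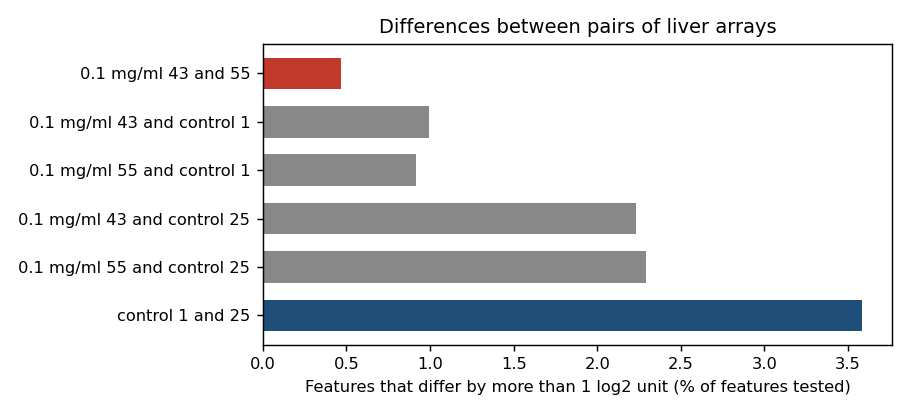
Share of the 12800 features tested that differ by more than 1 log2 unit, for each pair of the 4 liver arrays (bars, in percent). The bar for the control pair, at 3.59%, is the longest and that for the 0.1 mg/ml pair, at 0.469%, the shortest.

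Acute phase genes and genes of neutrophils set control replicate 25 apart. These genes were picked out after their values had been seen. Saa1, an inflammation-induced apolipoprotein secreted by hepatocytes, read 8.53 and 8.20 in the 0.1 mg/ml livers, against 7.28 and 13.47 in control livers 1 and 25. Orm2, another acute phase protein, read 7.91 and 7.98 in the 0.1 mg/ml livers, against 7.83 and 13.23 in controls. Both 0.1 mg/ml livers thus lay near control 1 and far below control 25.

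Lcn2, an iron-binding protein of neutrophils and inflamed hepatocytes, read 5.39 and 5.01 in the 0.1 mg/ml livers and 4.53 and 11.50 in the controls. S100a8, a subunit of the neutrophil protein calprotectin, read 5.25 and 4.56 in the 0.1 mg/ml livers and 5.48 and 9.81 in the controls. Nnmt, a nicotinamide-methylating enzyme, read 8.00 and 8.69 in the 0.1 mg/ml livers, between controls at 4.80 and 11.15. Of the 23 acute phase genes tested out of 25 listed, 21 had a negative difference, and their median was -0.30, yet against control 1 alone the median was 0.20 and against control 25 alone -0.81. The 6 of 13 neutrophil markers that were tested had a median of -1.90 against both controls, -0.11 against control 1 alone and -3.33 against control 25 alone; Ngp, Camp, Ltf, Mmp8, Cxcr2 and Mpo did not pass the detection filter. The mean level of the 6 was 4.72 and 4.47 in the 0.1 mg/ml livers, against 4.70 and 7.73 in controls. In bulk tissue, more cells of a type and more RNA per cell cannot be told apart. Every difference below that rests on both controls is affected by this pair, and list medians against each control alone are given below for many lists and, for every list with at least 6 genes tested, in the plot of list medians.

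**Figure D2:**
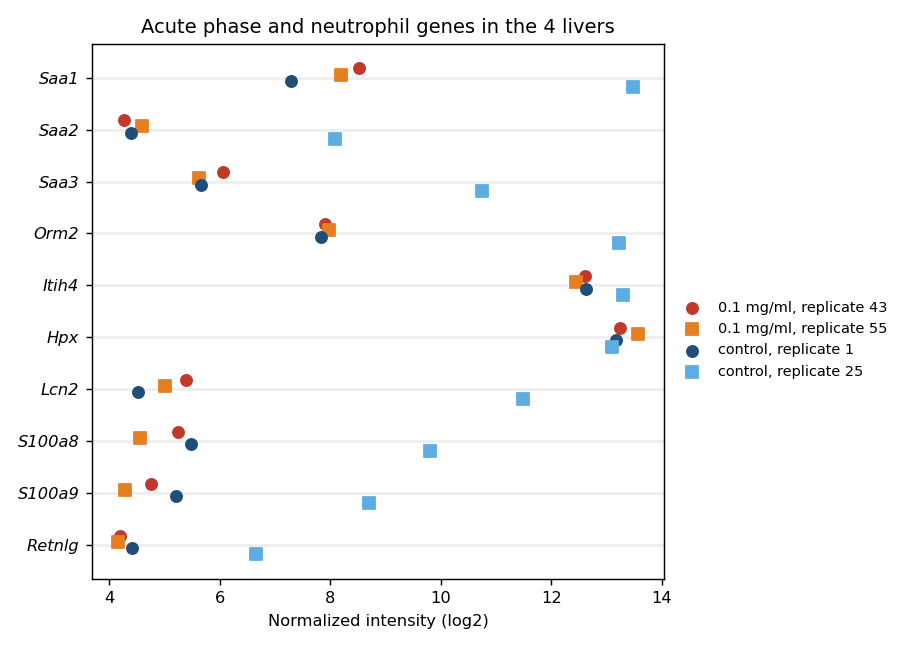
Normalized intensity (log2, horizontal axis) of acute phase and neutrophil genes on each of the 4 liver arrays (points). Control replicate 25 is the highest point for every gene except Hpx, while the other 3 livers lie close together, as for Orm2 at 7.91, 7.98 and 7.83.

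No feature passed the test. With limma and Benjamini-Hochberg adjustment over 12800 features, 10246 of them named, 0 (0%) reached an adjusted p below 0.05, and the smallest adjusted p was 0.984. Fitted on only the 4 arrays compared, 12027 features gave 0 calls in limma and a smallest adjusted p of 0.272. An unadjusted p under 0.05 was reached by 513 features (4.01%), of which 273 (2.13%) read higher and 240 (1.88%) lower in the 0.1 mg/ml livers. The 0.1 mg/ml livers lay above both controls at 1939 features (15.1%) and below both at 1929 (15.1%), and the counts of list members given below are to be read against these shares. Differences were spread evenly around 0: 49.5% were positive and 50.5% negative, with a median of -0.0027, and 48 features differed by more than 1 log2 unit. There were 708 features undetected on both 0.1 mg/ml arrays but detected on a control array, and 405 undetected on both control arrays but detected on a 0.1 mg/ml array.

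The count of calls depended on the controls. Without control 1, 294 features passed an adjusted p of 0.05 in limma, 88 higher and 206 lower in the 0.1 mg/ml livers, and without control 25, 21 features passed, 13 higher and 8 lower. Only 3 features were shared by these lists. Ppp1r3g was higher in both, while Uhrf1 and Nnmt had opposite signs in them. A fit on 1 control assumes that it varies like the other groups, and the same 0.1 mg/ml arrays enter both.

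The 10 genes per direction with the smallest unadjusted p among those whose groups did not overlap had p from 0.000284 to 0.00605 in limma, and an adjusted p of 0.984 each. Mknk2, a kinase that phosphorylates the cap-binding factor eIF4E, read 9.47 and 9.41 in the 0.1 mg/ml livers, against 8.39 and 8.50 in controls (difference 0.99 ± 0.16, SE). That is 1.99-fold higher, and the 2 livers of each group were close to each other. Angptl4, a secreted inhibitor of lipoprotein lipase and a PPAR target, read 10.32 and 10.20 in the 0.1 mg/ml livers, against 9.21 and 9.48 in controls (0.92 ± 0.17). Mbd1, a protein that binds methylated CpG sites, read 8.69 and 8.47 in the 0.1 mg/ml livers, against 7.75 and 7.55 in controls (0.93 ± 0.17). All 3 probes of Mbd1 were higher at 0.1 mg/ml, by 0.43, 0.45 and 0.93.

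The largest difference of these 20 was that of Ppp1r3g, a subunit that directs protein phosphatase 1 to glycogen and promotes glycogen synthesis. It read 9.11 and 7.80 in the 0.1 mg/ml livers, against 4.66 and 6.19 in controls, 3.03 ± 0.57 on the log2 scale or 8.17-fold higher. Both 0.1 mg/ml livers were far above both controls, but the livers within each group also differed by more than 1 log2 unit. A second probe of Ppp1r3g differed by 0.43. Ppp1r3g passed the threshold of limma without control 1 (2.27, adjusted p 0.0317) and without control 25 (3.74, adjusted p 0.0183), although not with both controls.

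Zbtb16, a zinc finger repressor known to respond to glucocorticoids, read 6.32 and 6.39 in the 0.1 mg/ml livers, against 4.42 and 4.62 in controls (1.83 ± 0.39). Prss53, a serine protease, read 5.99 and 6.55 in the 0.1 mg/ml livers, against 5.10 and 5.11 in controls (1.17 ± 0.23). Genes of endothelial cells were among the 10: the scavenger receptor Scarf1 read 6.08 and 6.10 at 0.1 mg/ml against 5.37 and 5.44 in controls, and the transcription factor Sox18 read 5.27 and 5.21 against 4.67 and 4.57. The uncharacterised 9130409I23Rik (0.63 ± 0.15) and Gm26588 (1.03 ± 0.26) completed the set.

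Of the genes that read lower, B3galt1, a galactosyltransferase that builds glycan chains, was at 6.26 and 6.23 in the 0.1 mg/ml livers, against 7.18 and 7.06 in controls (-0.87 ± 0.16). Its second probe differed by only -0.08. Pigt, a subunit of the complex that attaches GPI anchors to proteins, read 6.26 and 6.07 in the 0.1 mg/ml livers, against 6.88 and 7.64 in controls (-1.09 ± 0.25), and its second probe differed by -0.68. Stat5a, which carries growth hormone and cytokine signals to the nucleus, read 4.92 and 5.06 in the 0.1 mg/ml livers, against 5.74 and 5.51 in controls (-0.64 ± 0.16), with a second probe at -0.24.

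Scarb1, the receptor for high-density lipoprotein, read 4.56 and 4.60 in the 0.1 mg/ml livers, against 5.24 and 5.24 in controls (-0.66 ± 0.17). Ppp1r1b, an inhibitor of protein phosphatase 1 known from the brain, differed by -0.88 ± 0.20, with its other probes at -0.15 and close to 0. The zinc finger genes Zc3h6 (-0.76 ± 0.17) and Klf6 (-0.63 ± 0.17) and the gene Odf3b (-0.67 ± 0.18) were in the same set, and the second probes of Klf6 and Odf3b differed by -0.11 and -0.19. Kcnj8, a pore subunit of a potassium channel, and Crym, a thyroid hormone-binding protein, were undetected on both 0.1 mg/ml arrays. Their levels were at least 1.45-fold (Kcnj8) and at least 1.34-fold (Crym) lower there than in controls, as bounds in which each 0.1 mg/ml array was set to the lowest signal of its detected probes where that was higher than the probe's own.

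**Figure D3:**
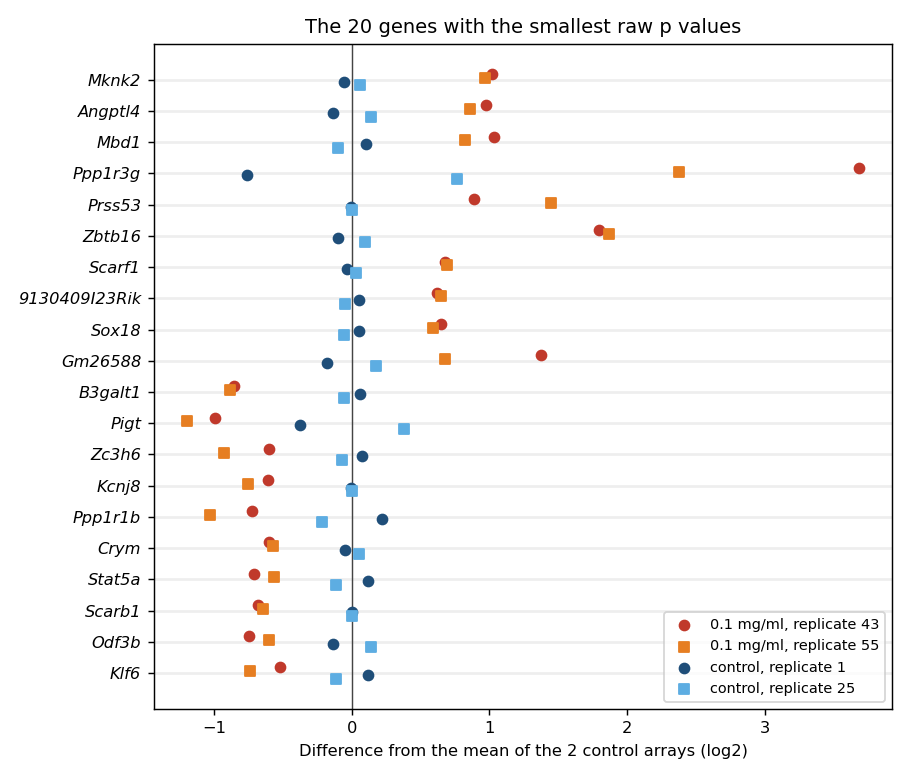
Log2 difference of each of the 4 liver arrays (points) from the mean of the 2 control arrays, for the 10 genes with the smallest unadjusted p in each direction. In all 20 the 0.1 mg/ml points lie on 1 side of both controls, by which they were chosen, and Ppp1r3g has the largest difference and the widest spread within groups.

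Glycogen genes gave mixed values. Of 18 tested out of 22 listed, Ppp1r3g among them, 4 (22.2%) lay above both controls and 2 (11.1%) below, with a median of 0.07. Among all features 15.1% lay in each direction. Gys2, the liver glycogen synthase, read 8.06 and 8.01 in the 0.1 mg/ml livers, against 7.62 and 6.57 in controls (0.94 ± 0.30), and Ugp2, which makes UDP-glucose, differed by 0.36 ± 0.19. Gbe1, the branching enzyme, differed by -0.41 ± 0.23. Among 19 gluconeogenesis and insulin signalling genes, 14 had a positive difference and 2 lay above both controls, with a median of 0.11 that was 0.23 against control 1 alone and -0.0083 against control 25 alone. Foxo1, the insulin-regulated transcription factor of gluconeogenesis, read 7.33 and 7.48 at 0.1 mg/ml against 7.12 and 6.81 in controls. G6pc, whose product releases glucose from its phosphate, read 11.26 and 10.13 in the 0.1 mg/ml livers, against 8.23 and 11.05 in controls, and so overlapped. Without control 25, G6pc passed the threshold of limma at 2.48 (adjusted p 0.0336).

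Genes of fatty acid oxidation had small differences with a positive median. Of 22 PPAR-alpha targets and oxidation genes tested out of 30, 8 (36.4%) lay above both controls and 2 (9.09%) below, beside 15.1% of all features in each direction. The median was 0.13 against both controls, 0.09 against control 1 alone and 0.16 against control 25 alone. Acaa2, the thiolase of the mitochondrial beta-oxidation spiral, read 11.10 and 10.78 in the 0.1 mg/ml livers, against 10.60 and 10.31 in controls (0.48 ± 0.19). Acadl, an acyl-CoA dehydrogenase, differed by 0.42 ± 0.20, and Pdk4, a kinase that shuts off pyruvate dehydrogenase, by 0.34 ± 0.17, but 1 further probe of Acaa2 (-0.09) and 1 of Acadl (-0.23) had the opposite sign. Cyp4a14, a fatty acid hydroxylase that is a classical PPAR-alpha target, was on the other side, at 5.45 and 5.73 in the 0.1 mg/ml livers, against 6.73 and 7.19 in controls (-1.38 ± 0.41). The list thus held both directions at the same dose.

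In fatty acid and triglyceride synthesis, 22 of 24 genes were tested, 3 lay above both controls and 2 below, and the median was -0.07. Lpin1, a phosphatidate phosphatase of triglyceride synthesis and a coactivator of fatty acid oxidation, read 8.75 and 8.72 in the 0.1 mg/ml livers, against 6.83 and 8.05 in controls (1.29 ± 0.34). Its second probe also differed by 1.24. Without control 25, Lpin1 passed the threshold at 1.90 with an adjusted p of 0.0024 in limma. Lpin2 read 9.36 and 9.02 in the 0.1 mg/ml livers, against 8.90 and 8.10 in controls (0.69 ± 0.26), but its other probes lay between -0.11 and 0.03. Pnpla3, a lipid droplet protein, was at 4.74 and 4.87 in the 0.1 mg/ml livers, against 4.99 and 7.48 in controls, and its difference of -1.43 ± 0.64 came from control 25.

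Sterol synthesis genes read lower, and control 25 held the highest values. All 15 sterol genes on the array were tested out of 21 listed, and 14 had a negative difference. Of the 15, 8 (53.3%) lay below both controls, beside 15.1% of all features. The list median was -0.50 against both controls, -0.15 against control 1 alone and -0.85 against control 25 alone. Mvd, which makes isopentenyl diphosphate, read 5.94 and 6.10 in the 0.1 mg/ml livers, against 6.26 and 7.61 in controls (-0.91 ± 0.37). Srebf2, which encodes the factor SREBP-2 that switches these genes on, read 5.61 and 5.84 at 0.1 mg/ml against 5.99 and 6.46 in controls (-0.50 ± 0.20), and its second probe differed by -0.44. Sc5d (-0.79 ± 0.30) and Cyp51 (-0.55 ± 0.23), later enzymes of the pathway, also lay below both controls.

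Heat shock protein genes read higher as a group, with the livers unequal within it. Of 22 heat shock genes tested out of 26, 9 (40.9%) lay above both controls and 2 (9.09%) below. The share over all features was 15.1% in each direction. The list median was 0.27, with 0.28 against control 1 alone and 0.14 against control 25 alone. Hspa1a, the inducible Hsp70, read 5.83 and 7.66 in the 0.1 mg/ml livers, against 4.27 and 5.29 in controls (1.97 ± 0.85). Replicate 55 was 1.83 log2 units above replicate 43, and the second probe of Hspa1a differed by 0.30. Hspa1b, a nearly identical copy whose probe may share transcripts with Hspa1a, was undetected on both control arrays. It read 4.40 and 5.31 at 0.1 mg/ml, at least 1.40-fold higher, while its second probe differed by 0.16. Hspb1, a small heat shock protein, read 5.73 and 5.79 in the 0.1 mg/ml livers, against 5.65 and 4.55 in controls (0.66 ± 0.31). Hspd1, the mitochondrial chaperonin, differed by 0.28 ± 0.15, and Cct5, a subunit of the cytosolic chaperonin, by -0.34 ± 0.17.

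Unfolded protein response genes, which serve folding in the endoplasmic reticulum, also split by liver. Of 15 tested out of 19, 4 lay above both controls and 1 below, and the median was 0.19. Sdf2l1 read 5.71 and 6.38 in the 0.1 mg/ml livers, against 5.48 and 5.13 in controls (0.74 ± 0.25), and Hyou1, a large endoplasmic reticulum chaperone, differed by 0.65 ± 0.25. Creld2 read 7.63 and 8.62 at 0.1 mg/ml against 7.52 and 7.54 in controls (0.60 ± 0.29), and its second probe differed by 0.86. Hsp90b1, the chaperone Grp94, read 11.50 and 12.08 in the 0.1 mg/ml livers, against 11.40 and 11.40 in controls (0.39 ± 0.22). In each of these genes replicate 55 was the higher of the 0.1 mg/ml livers, and its mean over the list was 8.16, against 7.83 for replicate 43 and 7.75 and 7.81 for controls.

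The promoters of Hspa1a and of Hsp90b1 and Creld2 are shown because Hspa1a had the largest difference of its list and the folding genes Hsp90b1 and Creld2 were both highest in replicate 55. Each covers 300 bases around the gene's start, most of them before it, 5′ to 3′ along the gene, taken from RefSeq on GRCm38.p6, with the matches in capitals. The searches were for GAANNTTC, the core of a heat shock element, and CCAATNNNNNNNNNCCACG, the endoplasmic reticulum stress element, on both strands. Hspa1a lies on the minus strand at chr17:34972107-34972406, Hsp90b1 on the minus strand at chr10:86705395-86705694 and Creld2 on the plus strand at chr15:88819396-88819695.
Hspa1a: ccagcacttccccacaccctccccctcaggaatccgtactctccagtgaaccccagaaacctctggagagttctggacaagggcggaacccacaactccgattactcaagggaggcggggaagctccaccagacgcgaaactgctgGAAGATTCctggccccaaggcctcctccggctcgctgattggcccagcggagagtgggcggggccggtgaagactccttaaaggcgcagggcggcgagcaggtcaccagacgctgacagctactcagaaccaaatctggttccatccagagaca
Hsp90b1: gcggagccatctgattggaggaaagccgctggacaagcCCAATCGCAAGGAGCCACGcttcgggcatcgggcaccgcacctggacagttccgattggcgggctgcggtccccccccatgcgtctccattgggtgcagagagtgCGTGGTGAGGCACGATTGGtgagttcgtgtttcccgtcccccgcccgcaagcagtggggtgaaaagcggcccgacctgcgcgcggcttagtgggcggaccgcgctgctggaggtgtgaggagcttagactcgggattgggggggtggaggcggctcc
Creld2: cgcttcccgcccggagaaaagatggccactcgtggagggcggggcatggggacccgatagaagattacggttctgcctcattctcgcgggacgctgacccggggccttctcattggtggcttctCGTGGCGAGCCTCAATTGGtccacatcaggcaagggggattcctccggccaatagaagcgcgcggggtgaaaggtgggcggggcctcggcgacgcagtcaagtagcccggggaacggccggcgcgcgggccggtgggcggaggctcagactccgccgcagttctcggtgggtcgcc
Hspa1a held 1 heat shock match, Hsp90b1 held 2 stress element matches and Creld2 held 1. Of 32851 promoters of the same length, 7.86% held the heat shock letters, as did 10 of the 18 heat shock genes with a promoter in the table. The stress element was in 0.119% of promoters and in 6 of the 14 unfolded protein response genes with one.

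The amino acid stress response gave mixed values, with 18 of 19 genes tested, 2 above and 3 below both controls and a median of -0.06. Ddit3, the stress factor Chop, read 5.71 and 5.97 in the 0.1 mg/ml livers, against 5.26 and 4.88 in controls (0.76 ± 0.19), and its second probe differed by 0.70. Vldlr, a lipoprotein receptor, differed by -0.48 ± 0.20, and all its 3 probes lay between -0.50 and -0.48.

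Lists linked to the known actions of curaxins had medians from -0.08 to -0.0075. Their counts stand beside 15.1% of all features above both controls and 15.1% below. Of 16 FACT and histone chaperone genes tested out of 20, 1 (6.25%) lay above and 2 (12.5%) below both controls. The FACT list had a median of -0.0075 that was 0.10 against control 1 alone and -0.05 against control 25 alone. Supt16, the large FACT subunit, read 6.13 and 5.81 in the 0.1 mg/ml livers, against 6.14 and 6.14 in controls (-0.17 ± 0.17). A second Supt16 probe differed by 0.02. Of 20 p53 targets tested out of 28, 4 (20%) lay above and 3 (15%) below both controls. These targets had a median of -0.08 that was 0.08 against control 1 alone and -0.11 against control 25 alone. Cdkn1a, the p53 target p21, read 5.06 and 5.0 at 0.1 mg/ml and 4.26 and 6.15 in controls, so both 0.1 mg/ml livers lay between the controls. Tnfrsf10b, a death receptor, differed by 0.52 ± 0.25, with a second probe at 0.06. Mdm2, which marks p53 for degradation, differed by 0.26 ± 0.16, with a second probe at -0.27. Ccng1, cyclin G1, differed by -0.31 ± 0.17, with its other probes at -0.23 and 0.0088.

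Of 16 NF-kB pathway genes tested out of 28, 0 lay above and 2 (12.5%) below both controls, beside 15.1% of all features each way. Their median was -0.07, which was 0.05 against control 1 alone and -0.14 against control 25 alone. Nfkbia, an inhibitor that is itself an NF-kB target, read 7.29 and 6.66 in the 0.1 mg/ml livers and 7.31 and 6.87 in controls, with overlapping groups. Nfkbib, a related inhibitor, was undetected on both 0.1 mg/ml arrays and at least 1.23-fold lower there, and Tnfaip2 differed by -0.37 ± 0.16.

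Immediate early genes, which respond within minutes to signals, included large differences in both directions. Of 18 tested out of 27, 5 lay above and 3 below both controls, with a median of 0.06. Egr1 read 6.83 and 6.20 in the 0.1 mg/ml livers, against 8.33 and 8.07 in controls (-1.69 ± 0.56). Dusp1, a phosphatase of MAP kinases, read 9.38 and 8.49 in the 0.1 mg/ml livers, against 7.04 and 8.31 in controls (1.26 ± 0.45). Klf2 differed by 0.58 ± 0.27.

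Of 17 clock genes tested out of 22, 1 lay above both controls and 0 below, with a median of 0.07. That gene was Ciart, a repressor of the circadian clock, which read 7.81 and 7.16 in the 0.1 mg/ml livers, against 6.21 and 6.81 in controls (0.97 ± 0.27), and its 3 probes differed by 0.64, 0.67 and 0.97. The sources used here do not say at what time of day the livers were taken. Its promoter, at chr3:95882179-95882478 on the minus strand (GRCm38.p6, RefSeq), is shown because it was the only clock gene with separated groups, with matches to the E-box CACGTG in capitals.
Ciart: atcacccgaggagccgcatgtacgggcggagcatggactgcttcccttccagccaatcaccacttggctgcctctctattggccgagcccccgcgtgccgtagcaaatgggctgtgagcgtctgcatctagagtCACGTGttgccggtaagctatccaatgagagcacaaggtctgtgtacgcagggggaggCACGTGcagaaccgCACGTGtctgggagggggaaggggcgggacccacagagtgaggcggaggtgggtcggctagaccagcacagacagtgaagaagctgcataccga
It held 3 E-boxes. Of all promoters 7.15% held at least 1, as did 3 of the 13 clock genes with a promoter.

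Drug-metabolising genes differed in both directions, and the CAR and PXR targets ran from -1.05 (Cyp2b9) to 0.28 (Cyp3a11). Of 16 CAR and PXR targets tested out of 22, 2 lay above and 0 below both controls, with a median of -0.12 that was 0.07 against control 1 alone and 0.03 against control 25 alone. Cyp3a11, the main drug-oxidising P450 of the mouse liver, read 13.02 and 12.86 in the 0.1 mg/ml livers, against 12.67 and 12.66 in controls (0.28 ± 0.19). Only 3 of 7 AhR targets and 17 of 22 NRF2 targets were tested, with 1 and 2 above and 1 and 2 below both controls. Ephx1, which hydrolyses epoxides, read 11.52 and 11.53 at 0.1 mg/ml against 11.26 and 10.76 in controls (0.52 ± 0.20).

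Of 25 conjugating enzymes tested out of 29, 2 lay above and 3 below both controls. Gstt3, a glutathione transferase, read 8.20 and 8.30 in the 0.1 mg/ml livers, against 8.69 and 9.34 in controls (-0.77 ± 0.23), while Gstm2 differed by 0.43 ± 0.18. Of 15 bile acid genes, 5 (33.3%) lay above and 2 (13.3%) below both controls, beside 15.1% of all features in each direction. Their median was -0.07 against both controls, 0.12 against control 1 alone and -0.09 against control 25 alone. Abcg8, which with a partner exports sterols into bile, read 9.77 and 9.54 in the 0.1 mg/ml livers, against 9.32 and 8.73 in controls (0.63 ± 0.22). Cyp7b1, a bile acid-synthesising hydroxylase, differed by 0.57 ± 0.29, and Klb, the coreceptor of the bile acid-regulating hormone Fgf15, by -0.42 ± 0.21.

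In the growth hormone and IGF list, 13 of 16 genes were tested, 2 lay above and 2 below both controls, and the median was 0.10. Igfbp2, a circulating IGF carrier, read 9.37 and 9.26 in the 0.1 mg/ml livers, against 10.54 and 9.83 in controls (-0.87 ± 0.26), and its second probe differed by -0.62. Bcl6, a repressor under growth hormone control, differed by 0.46 ± 0.22. Of 15 male-biased liver genes, 3 lay above and 1 below both controls, with a median of 0.40 that was -0.05 against control 1 alone and 0.61 against control 25 alone. Cyp4a12a, an arachidonate hydroxylase of male liver, read 11.82 and 12.04 in the 0.1 mg/ml livers, against 11.49 and 10.98 in controls (0.70 ± 0.20). Of the 18 female-biased genes only 6 were tested, 1 lay above and 1 below both controls, and the median was -0.35, but 0.09 against control 1 alone and -0.01 against control 25 alone. Ntrk2, a neurotrophin receptor, read 6.80 and 6.29 in the 0.1 mg/ml livers, against 5.88 and 4.97 in controls (1.12 ± 0.35).

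The list medians of secreted plasma proteins depended on the control used. Of 30 coagulation and complement genes tested out of 34, 2 lay above and 7 below both controls, with a median of -0.08 that was -0.0061 against control 1 alone and -0.24 against control 25 alone. F7, the factor that starts clotting with tissue factor, read 7.32 and 7.36 in the 0.1 mg/ml livers, against 7.88 and 7.78 in controls (-0.49 ± 0.16). F5, a cofactor of thrombin formation, differed by -0.46 ± 0.16, with a second probe at -0.08. Ahsg, the plasma glycoprotein fetuin-A and a hepatocyte marker, read 13.02 and 13.24 in the 0.1 mg/ml livers, against 13.55 and 13.55 in controls (-0.42 ± 0.16), though a second probe differed by 0.09. Of 22 lipoprotein genes, 1 lay above and 4 below both controls, with a median of -0.10 that was 0.01 against control 1 alone and -0.23 against control 25 alone.

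Interferon response genes read lower, most of them by small amounts, and mainly against control 25. Of 26 tested out of 34, 0 lay above and 9 (34.6%) below both controls, beside 15.1% of all features in each direction. The list median was -0.16, with -0.02 against control 1 alone and -0.27 against control 25 alone. Isg15, a ubiquitin-like antiviral protein, read 4.41 and 4.87 in the 0.1 mg/ml livers, against 5.04 and 5.55 in controls (-0.66 ± 0.24). Bst2 (-0.46 ± 0.17) and Ifit3 (-0.54 ± 0.22), both antiviral effectors, were also below both controls, though a second Ifit3 probe differed by -0.06. At 0.2 mg/ml, against the same controls, the list median was 0.30 and 21 of the 26 genes read higher.

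Markers of cells other than hepatocytes differed in both directions. Of 13 stellate cell and fibroblast markers tested out of 15, 7 (53.8%) lay above both controls and 1 (7.69%) below. For all features the share was 15.1% in each direction. The median of these markers was 0.31, which was 0.13 against control 1 alone and 0.53 against control 25 alone. Col6a1, a collagen of the pericellular matrix, read 5.66 and 5.73 in the 0.1 mg/ml livers, against 5.11 and 5.14 in controls (0.57 ± 0.15), and its second probe differed by 0.33. Lum, a proteoglycan that binds collagen, differed by 0.66 ± 0.20, while its second probe differed by 0.06. The 1 marker below both controls was Acta2, at -0.38, with its other probes at -0.06 and -0.33. The marker mean was 6.53 and 6.44 in the 0.1 mg/ml livers, against 6.30 and 6.05 in controls.

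Of 14 endothelial markers tested out of 15, 5 (35.7%) lay above both controls and 0 below, beside 15.1% of all features in each direction. Their median was 0.24, which was 0.05 against control 1 alone. Clec4g, a lectin of the sinusoidal endothelium, read 10.72 and 10.56 in the 0.1 mg/ml livers, against 10.26 and 10.25 in controls (0.39 ± 0.17). Fcgr2b, an inhibitory Fc receptor of these cells, differed by 0.50 ± 0.18, though its other probes differed by -0.15 and 0.38. Of 12 macrophage and Kupffer cell markers, 2 lay above and 0 below both controls, with a median of 0.08. Csf1r, the receptor of macrophage growth factor, read 7.10 and 7.13 in the 0.1 mg/ml livers, against 6.39 and 6.81 in controls, but a second probe differed by -0.03.

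Of only 7 erythroid markers tested out of 12, 0 lay above and 4 (57.1%) below both controls, beside 15.1% of all features. Their median was -0.32. Hbb-b2, an adult beta-globin nearly identical to its neighbours, read 6.90 and 6.90 in the 0.1 mg/ml livers, against 8.08 and 7.17 in controls (-0.73 ± 0.28). Slc4a1, the anion exchanger of red cells, differed by -0.58 ± 0.22. B cell, cholangiocyte, adipocyte and mammary or keratin markers left 1, 3, 2 and 2 genes to test, since most had no probe or did not pass the detection filter. The 7 T and NK cell markers tested had a median of -0.01, with 1 above and 3 below both controls, the 3 pancreatic acinar markers had 1 above and 1 below, and the 10 hepatocyte markers had a median of 0.06, with 2 above and 1 below. Of 24 cell cycle genes tested out of 32, 0 lay above and 3 below both controls, with a median of -0.15 that was 0.16 against control 1 alone and -0.65 against control 25 alone.

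Lists of general cell functions had small median differences. The medians were 0.05 over 17 cytosolic ribosomal proteins, 0.07 over 22 genes of the respiratory chain and -0.06 over 19 proteasome genes. Against control 1 alone the ribosomal and respiratory medians were -0.06 and -0.03, and against control 25 alone 0.15 and 0.16. Of these, 4 (23.5%), 7 (31.8%) and 1 (5.26%) lay above both controls and 0, 0 and 3 (15.8%) below. The urea cycle and amino acid breakdown list had 6 (26.1%) above and 1 (4.35%) below among 23 tested, with a median of 0.08. Among all features 15.1% lay in each direction. The remaining lists had a median of 0.06 for 18 MNK, mTOR and translation genes and -0.05 for 16 iron genes, with 3 and 4 above and 0 and 2 below. The plot of list medians sets all of them beside the values against each control alone.

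**Figure D4:**
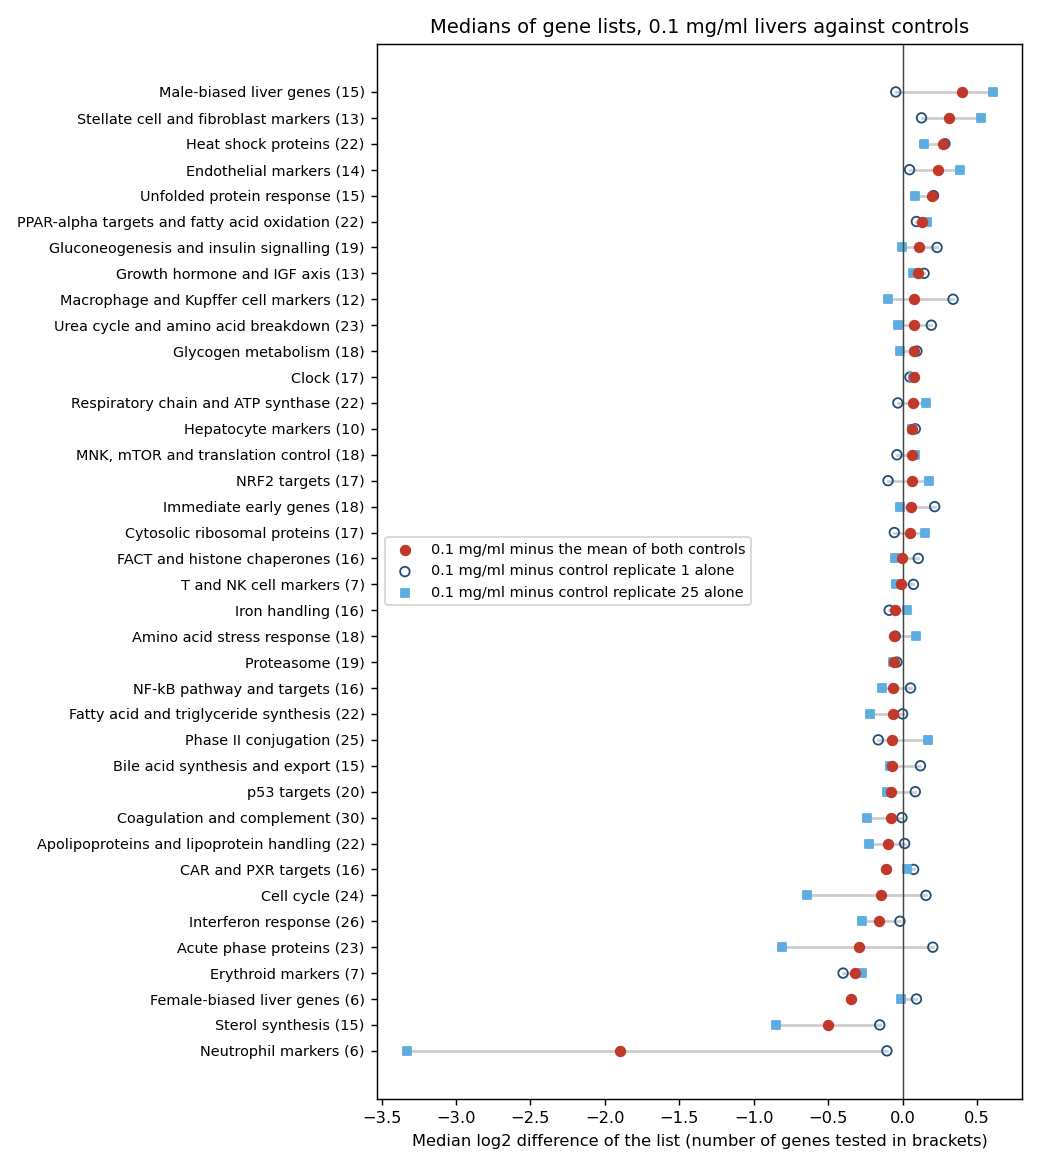
Median log2 difference (horizontal axis) of each gene list with at least 6 genes tested, for the 0.1 mg/ml livers against both controls (filled red), control 1 alone (open) and control 25 alone (blue squares). The 2 single-control points are furthest apart for neutrophil markers, at -0.11 and -3.33, and lie together for the PPAR-alpha list, at 0.09 and 0.16.

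The lower dose was also set against the livers at 0.2 mg/ml (replicates 73 and 85). Differences of the 2 doses from water share the same controls, so they are given side by side. The doses were also tested against each other, a difference that does not use the controls. The spread in that test is estimated over all liver arrays, the control pair included. A control left alone in its group adds nothing to that spread. In that test limma gave 0 of 12800 features (0%) with an adjusted p under 0.05, 1217 with an unadjusted p under 0.05, and a smallest adjusted p of 0.0571. Leaving out control 1 gave 204 calls and leaving out control 25 gave 216, although neither array is part of that contrast; the cause was not tested. The smallest value belonged to Csad, which makes hypotaurine on the way to taurine. Csad read 10.55 and 9.71 in controls, 10.90 and 10.58 at 0.1 mg/ml and 7.35 and 7.83 at 0.2 mg/ml, so the lower dose was 3.15 ± 0.29 log2 units above the higher one. Cyp3a11 followed, at 12.67 and 12.66 in controls, 13.02 and 12.86 at 0.1 mg/ml and 11.03 and 11.48 at 0.2 mg/ml (1.68 ± 0.19, adjusted p 0.125).

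Other genes lay closer together at the 2 doses. Ppp1r3g read 7.71 and 8.69 at 0.2 mg/ml, with the lower dose 0.25 ± 0.57 above it, and Igfbp2 read 9.11 and 9.56, a difference of -0.02 between the doses. Angptl4 read 9.89 and 9.95 and Mknk2 9.10 and 8.85 at 0.2 mg/ml, and in both genes these values lay between those of controls and of the lower dose. Mbd1 read 7.98 and 7.82 at 0.2 mg/ml, near the controls, with the lower dose 0.68 ± 0.17 higher. Hspa1a read 5.18 and 7.82 at 0.2 mg/ml, so 1 liver of that dose overlapped the controls.

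**Figure D5:**
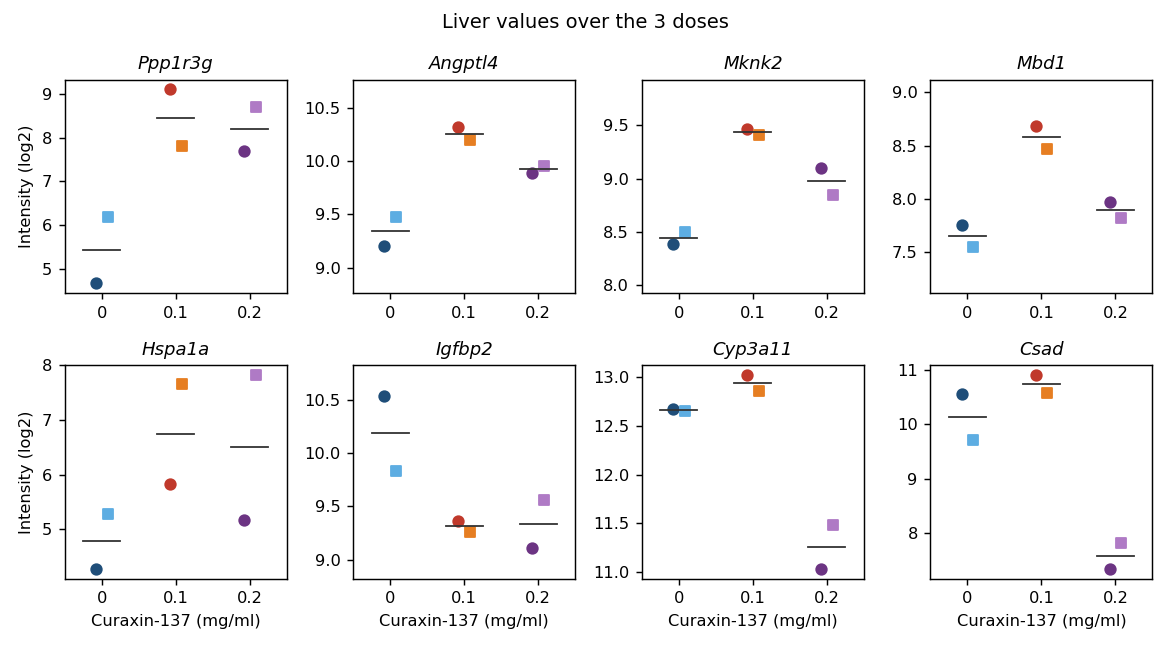
Normalized intensity (log2) of 8 genes on each of the 6 liver arrays (points) at 0, 0.1 and 0.2 mg/ml Curaxin-137, with group means (lines). Csad and Cyp3a11 are low at 0.2 mg/ml only, while Ppp1r3g is high and Igfbp2 low at both doses.

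In the spleen, the same dose was compared in 1 fit of all 11 arrays, with the difference in response between tissues tested directly. The spleen had 1 control array, so its response has no replicate check on the control side. Of 16179 features, 0 (0%) passed an adjusted p of 0.05 in limma and 1594 an unadjusted p of 0.05, and the smallest adjusted p was 0.131. Without spleen replicate 56 there were 602 calls and without spleen replicate 32 there were 372. Ppp1r3g differed by -0.02 in spleen, and its response in liver exceeded that in spleen by 2.94 ± 0.84. Angptl4 differed by 1.73 in spleen, and its response in liver minus that in spleen was -0.92 ± 0.25 (adjusted p 0.327 in limma). Klf6 differed by -2.36 in spleen.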

How the data were processed

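Total RNA from frozen liver was labelled and hybridised to mouse Illumina bead arrays with 45281 probes. The deposited intensities are probe signals made by the authors in GenomeStudio 1.6.0 (per the submitters' processing notes). The deposited detection p-values stand beside them, per the file headers. The log2 values of the deposited series matrix were made in a way the sources used here do not describe. They lay within 0.09 of the log2 of quantile-normalized signals, with column medians of 5.10 to 5.11, so scale, centring and direction are those of the signals, and they were used as an alternative only.

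The 6 liver arrays were processed in limma 3.58.1 (R 4.3.3) with neqc: normexp with the background taken from the detection p-values and 16 added, then quantile normalization, on the log2 scale. A probe was kept where its detection p-value was below 0.05 on 2 or more liver arrays, and each gene was represented by its brightest kept probe. Platform annotation names 34885 probes by 1 symbol, 18 by several and 10378 by none, and unnamed probes were tested under their identifiers. Group means were fitted with lmFit and eBayes over all 6 livers (3 residual and 5.11 prior degrees of freedom), with Benjamini-Hochberg adjustment at 0.05. The fit and adjustment, but not the normalization, were checked on simulated arrays with known changes. Every simulated group had the same spread, so the check does not show how the test behaves with controls as unlike as these. Promoters came from RefSeq (GRCm38.p6).

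Named genes are the 10 per direction with the smallest unadjusted p among those without overlap, up to 4 such members of each of 44 lists (862 genes), and Supt16, Cdkn1a, Nfkbia and Hspa1b, with further genes said to be chosen on their values. Members and lists were chosen with earlier results of these data known. Alternatives were other scalings, backgrounds, filters, probes, moderation and array sets, and each array left out in turn.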

Additional observations from a re-analysis of the deposited data

How the results depend on the processing

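No feature passed for 0.1 mg/ml against control under any change of scaling, background, offset, filter, probe choice, moderation or array set that was run, and with single arrays left out the count was 0 to 294 (294 without control 1, 21 without control 25, 0 otherwise). Between the doses, where 0 passed, 1 passed with 75th percentile scaling and with the strict filter, 2 with the authors' normalized values, and 3 with an intensity trend and with all 11 arrays together. With single arrays left out that count was 0 to 216, of which 204 came without control 1 and 216 without control 25, neither of which is part of that contrast. For the difference between liver and spleen, where 0 passed, 9 passed with an offset of 50 and 2 without a detection filter, and 0 to 602 with single arrays left out: 1 without control 1, 602 without spleen replicate 56 and 372 without spleen replicate 32. An array enters the shared estimate of the spread of a fit where its group holds another array, also outside the contrast. An array alone in its group adds nothing to that estimate, such as the spleen control or 1 control liver with the other left out. The cause of these changes was not tested. Scaling to the 75th percentile moved the median of all features to -0.06.

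Of 1419 values of the 90 genes followed, 1409 kept their direction. Many of these genes were chosen because their groups did not overlap, and leaving out 1 array can hardly turn the sign of such a gene. The count is therefore no measure of how firm the differences are. The values that turned did so mostly with single arrays left out. Over those fits Nnmt ran from -2.79 to 3.50, G6pc from -0.35 to 2.48, Nfkbia from -0.43 to 0.20, Saa1 from -5.15 to 1.08 and Orm2 from -5.31 to 0.12. Over the same fits Lcn2 ran from -6.29 to 0.65, Uhrf1 from -1.98 to 1.36 and Cdkn1a from -1.11 to 0.74. The negative end came without control 1 and the positive end without control 25 for Nnmt, G6pc, Saa1, Orm2, Lcn2, Uhrf1 and Cdkn1a, and for Nfkbia without replicates 43 and 55. Nfkbia was also positive, at 0.10, without control 1, and Nnmt was -0.067 with an offset of 50. Of the medians of the 44 lists, 79 of 700 values moved by more than 1 SD. No paired analysis was possible because the groups share no replicate numbers. The chip as a block was not run, since the headers name no chip.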

Other observations

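The genes named here were chosen after their values were seen. The 0.1 mg/ml livers were alike at most features, and Socs2, Cish and Ppp1r3c were among those at which they differed. Socs2, which damps growth hormone signalling, read 7.48 and 9.44 in the 0.1 mg/ml livers (replicates 43 and 55), against 9.62 and 6.87 in control livers (replicates 1 and 25). Cish, a related STAT5 target, read 7.14 and 9.03 in the 0.1 mg/ml livers, against 8.77 and 7.12 in controls. In both genes 1 liver of each group was high and the other low. Ppp1r3c, a glycogen-targeting subunit related to Ppp1r3g, read 10.25 and 8.23 in the 0.1 mg/ml livers, against 8.29 and 9.24 in controls.

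Several genes of the 21 called without control 25 had a value in control 1 that lay apart from the other 3 livers. Tsc22d3, a leucine zipper protein induced by glucocorticoids, read 10.31 and 9.64 in the 0.1 mg/ml livers, against 8.11 and 10.04 in controls. Mfsd2a, a lysophospholipid transporter, read 9.35 and 8.67 at 0.1 mg/ml against 6.95 and 9.78 in controls. Cyp26a1, which degrades retinoic acid, read 5.57 and 5.78 in the 0.1 mg/ml livers, against 7.76 and 5.78 in controls. Control 25 lay apart instead at Serpina12, an adipokine also made by liver, which read 9.98 and 9.56 in the 0.1 mg/ml livers, against 10.09 and 6.81 in controls. Hsd3b5, a steroid dehydrogenase of male liver, read 11.01 and 11.20 in the 0.1 mg/ml livers, against 11.34 and 8.96 in controls.

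The sources used here do not state the sex of the mice. All 4 probes for Xist were undetected on all 11 arrays, 1 of 2 probes for Kdm5d was detected on all 11, and 1 of 4 probes for Uty on all 11. The 2 probes for Eif2s3y, another Y chromosome gene, were detected on 0 of the 6 livers and on 1 and 2 of the 11 arrays. The probe for Erbb2 was detected on 1 of the 6 livers.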
